A study of Mus musculus with 4 samples.

Results

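The distal ends of the 19 mouse autosomes were examined for TOP2B cleavage complexes. The members were the entries of a pooled peak list whose summit lies within the last 5 Mb of an autosome, at the telomeric end of build mm10. There were 1696 of them among 35539 entries in all. The rule uses position and no measured value. They were compared with the 1233 summits in the first 5 Mb after position 3000000 and with the 32386 summits in the rest of the autosomes. The summit nearest to the 5 Mb line on the inside lay 4989 kb from the end of chromosome 5, at Rasl11a, with a fold of 2.94, and the nearest on the outside lay 5001 kb from the end of chromosome 16, with a fold of 2.76.

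The cells were dissociated wild-type (WT) cortical neurons from E16 Swiss-Webster mouse embryos, grown in culture. All of them received etoposide at 50 µM for 30 min before collection, and no untreated group was analysed here. The labels give 2 TOP2B chromatin immunoprecipitation (ChIP) libraries and 2 input libraries, with nothing on separate cultures. Only a list pooled over libraries was analysed here, so no value has a replicate error, the depth of each library is unknown, and the tests below describe positions in this list, not variation between cultures. A peak list does not measure expression and cannot check the cell type. Intervals cover counting error only and take summits as independent, and the sign tests take the autosome as the unit. The sign tests are exact and two-sided.

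TOP2B is the main type II topoisomerase of neurons that no longer divide. It cuts both strands of a DNA duplex, passes another duplex through the gap and closes it again, which removes supercoils and tangles that arise as DNA is transcribed and folded. During the cut the enzyme is covalently linked to the DNA ends, and etoposide holds it in that state, the cleavage complex. Mouse autosomes carry their centromere at the low-coordinate end, so each has a single long arm, and the high-coordinate end is the subtelomeric region. Subtelomeric regions of mammals are often rich in genes, and in this build each chromosome sequence closes with unknown bases that stand for the telomere.

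RefSeq promoter windows, from 250 bases before to 50 after a gene's start, numbered 1744 in the distal ends, and 14 of the 1696 summits lay in such a window, at 15 genes. The same count for promoter windows elsewhere is not given here, so whether 14 is many or few was not tested. The bases before the start are shown for the 5 genes whose summits had the highest fold, so that the position of the summit against the start can be seen. Sequences are from RefSeq, build GRCm38.p6, on the gene's strand and 5′ to 3′, and the capitals mark the summit base with up to 10 bases on either side. Where the window overlaps the listed span of the gene, 30 bases are shown.
Tmprss12: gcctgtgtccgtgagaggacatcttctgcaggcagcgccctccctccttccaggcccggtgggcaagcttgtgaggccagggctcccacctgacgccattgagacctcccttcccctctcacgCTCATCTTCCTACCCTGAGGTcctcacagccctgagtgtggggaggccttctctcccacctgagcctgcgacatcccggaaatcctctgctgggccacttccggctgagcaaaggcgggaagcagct
Gm39484: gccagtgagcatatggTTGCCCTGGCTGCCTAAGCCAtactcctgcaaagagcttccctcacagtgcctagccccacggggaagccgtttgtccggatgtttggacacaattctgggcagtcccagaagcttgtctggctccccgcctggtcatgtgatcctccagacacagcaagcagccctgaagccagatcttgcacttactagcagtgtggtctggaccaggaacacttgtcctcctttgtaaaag
Gm51699: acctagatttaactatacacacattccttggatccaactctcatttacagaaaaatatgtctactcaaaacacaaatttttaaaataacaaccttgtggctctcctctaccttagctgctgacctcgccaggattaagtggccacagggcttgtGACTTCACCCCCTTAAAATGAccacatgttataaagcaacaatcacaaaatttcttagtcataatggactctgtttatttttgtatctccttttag
Phlda2: CTGGCAGCTGGGACGTTggggctggaggga
Smim41: tccagCCTGTCAGAGAAGGACCTCGAggcc
The Tmprss12 bases are chr15:100280587-100280836 on the plus strand, with the summit 117 bases before the start of this serine protease gene. The Gm39484 bases are chr11:119522923-119523172 on the plus strand, and the summit lay 224 bases before the start. The Gm51699 bases are chr9:122738773-122739022 on the plus strand, and the summit lay 86 bases before the start. The 30 bases of Phlda2 are chr7:143502745-143502774 on the minus strand, with the summit 244 bases before the start used by RefSeq for this window, and inside the listed gene. The 30 bases of Smim41 are chr15:101293069-101293098 on the plus strand, with the summit 141 bases before the start.

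The 5 sequences differed in base composition. Over the 250 bases before the start, GC content was 68.8% at Phlda2, 64.0% at Tmprss12, 57.2% at Smim41, 55.6% at Gm39484 and 36.8% at Gm51699. The median of all 31396 autosomal windows was 52.4%, and that of the distal windows was 54.4%. Of 4 motifs searched on both strands, the GC box GGGCGG was found at Phlda2 and Smim41, and it is present in 36.9% of distal and 33.0% of all autosomal windows. The AP-1 motif TGACTCA (4.501% of autosomal windows), the E-box CACGTG (6.02%) and the cAMP response element TGACGTCA (1.58%) were found in none of the 5. Folds were 3.63 at Tmprss12, 3.46 at Phlda2, 3.24 at Gm39484 and 2.94 at both others, where the q was 0.0675.

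Summits were denser in the distal ends than elsewhere when all autosomes were pooled, and the excess over the rest was largest on chromosomes 11, 4 and 7. The distal ends held 17.9 summits per Mb over 95 Mb, the rest of the autosomes 14.6 and the first 5 Mb after position 3000000 12.98. The pooled ratio of distal to rest was 1.22 (95% interval 1.16 to 1.28, adjusted p 3.23e-14, exact conditional binomial test, over 10 tests). It was higher on 12 autosomes and lower on 7, which did not pass the exact sign test (p 0.359, adjusted 0.659 over 11 tests).

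On chromosome 11 the last 5 Mb held 183 summits, or 36.6 per Mb (31.5 to 42.3), against 17.2 in the rest of the chromosome. Chromosome 4 held 156, or 31.2 per Mb (26.5 to 36.5), against 14.9. Chromosome 7 held 149, or 29.8 per Mb (25.2 to 35.0), against 14.9. These 3 windows were the densest of all whole 5 Mb windows counted inward from the end of their own chromosome, of 23, 30 and 28 windows. Together they held 488 of the 1696 summits (28.8%), at 2.09 times the density of the rest of the same chromosomes. Without them, a choice made after their values were seen, the remaining 16 distal ends held 15.1 summits per Mb against 14.4. That ratio was 1.05 (0.988 to 1.11), with a p of 0.115 by the exact conditional binomial test, and 9 were higher and 7 lower (p 0.804, exact sign test). The ends left out had the highest ratios of all autosomes, so the pooled ratio was bound to fall. These p-values therefore do not decide whether the remaining ends differ from the rest.

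The other ends fell on both sides of their chromosomes. Chromosomes 8, 1, 2 and 15 were also higher than the rest of themselves, at 1.39, 1.39, 1.35 and 1.27 times (adjusted p 0.00715, 0.00715, 0.00993 and 0.0465, over 19 exact tests). These p-values take summits as independent. Among the whole 5 Mb windows of their own chromosomes, counted from the densest, these ends ranked 3 of 25, 5 of 38, 8 of 35 and 5 of 20. Chromosomes 17 and 13 were lower, at 0.659 (0.491 to 0.867) and 0.699 (0.511 to 0.935) times, with adjusted p-values of 0.00715 and 0.0335. Their ends ranked 17 of 18 and 19 of 23 such windows, the latter tied with 1 other. The interval included 1 on 10 autosomes, from 0.780 on chromosome 6 to 1.23 on chromosome 9. Distal densities ran from 9.40 per Mb on chromosomes 13 and 14, through a median of 16.6, to 36.6. The rest of the autosomes ran only from 11.97 to 17.2 per Mb, with an SD over the 19 autosomes of 1.30 against 7.69 for the distal ends. A short window varies more than a long one from counting alone. The first 5 Mb windows, of the same length as the distal ones, had an SD of 5.15.

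**Figure D1:**
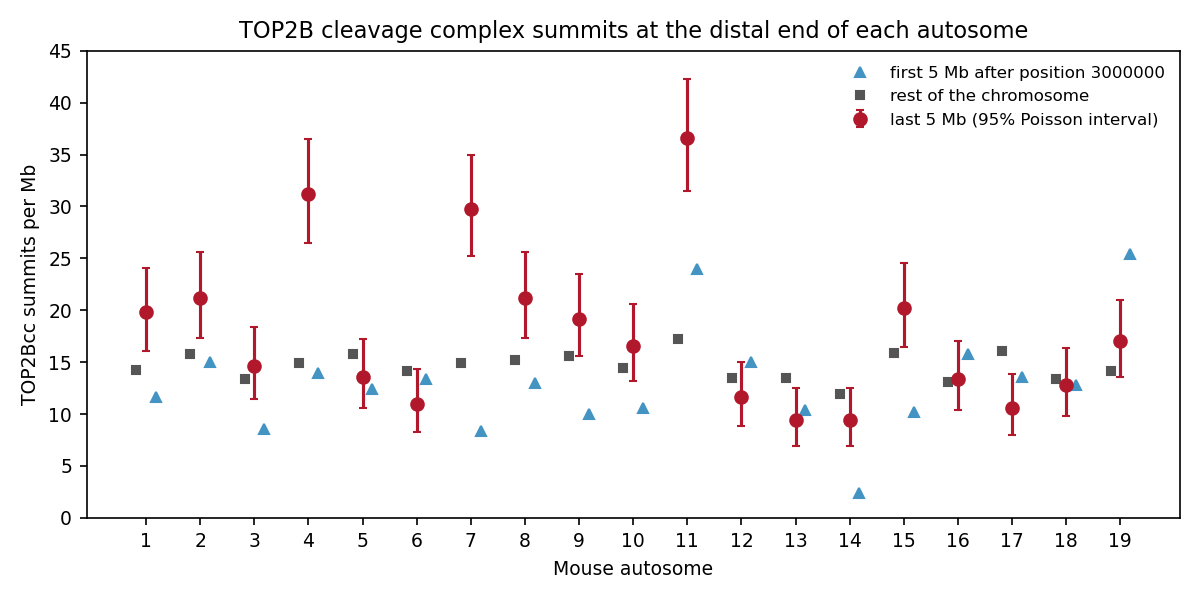
Summits per Mb (vertical axis) in the last 5 Mb of each autosome (circles, bars are 95% Poisson intervals), in the first 5 Mb after position 3000000 (triangles) and in the rest of the chromosome (squares). The distal ends of chromosomes 4, 7 and 11 stand at 31.2, 29.8 and 36.6 per Mb, while the squares all lie between 11.97 and 17.2.

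The opposite ends of the chromosomes did not share the pooled excess. The first 5 Mb after position 3000000 ranged from 2.40 summits per Mb on chromosome 14 to 25.4 on chromosome 19. Distal ends held 1.38 times their density (1.28 to 1.48, adjusted p 1.19e-16, exact conditional binomial test), and were higher on 12 autosomes, lower on 6 and equal on chromosome 18 (p 0.238, adjusted 0.659, exact sign test). Without chromosomes 4, 7 and 11 this ratio was still 1.21 (1.11 to 1.31, p 1.15e-05, exact conditional binomial test). The first 5 Mb held 0.888 times the density of the rest (0.838 to 0.940) and were lower on 15 of 19 autosomes. That gave a p of 0.0192 by the exact sign test and 0.211 after adjustment.

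Density was not at its highest at the edge. No summit of any autosome lay within 0.1 Mb of the end, and the outermost summit of each autosome stood between 103 kb (chromosome 3) and 578 kb (chromosome 9) from it, with a median of 208 kb. Between 0.1 and 1 Mb there were 13.5 summits per Mb (11.8 to 15.4). From 1 to 5 Mb there were 19.3, so the outermost Mb had 0.701 times that density (0.607 to 0.806, p 1.85e-07, exact conditional binomial test). It was lower on 14 autosomes and higher on 5 (p 0.0636, exact sign test), and this comparison was chosen after the values were seen. Protein-coding genes were not fewer there, with 14.04 per Mb between 0.1 and 1 Mb against 8.79 to 12.6 in the 4 Mb further in. Runs of unknown bases, in which no peak can be called, and repeats were not measured here. The density of the whole last 5 Mb counts the last 0.1 Mb in its length.

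**Figure D2:**
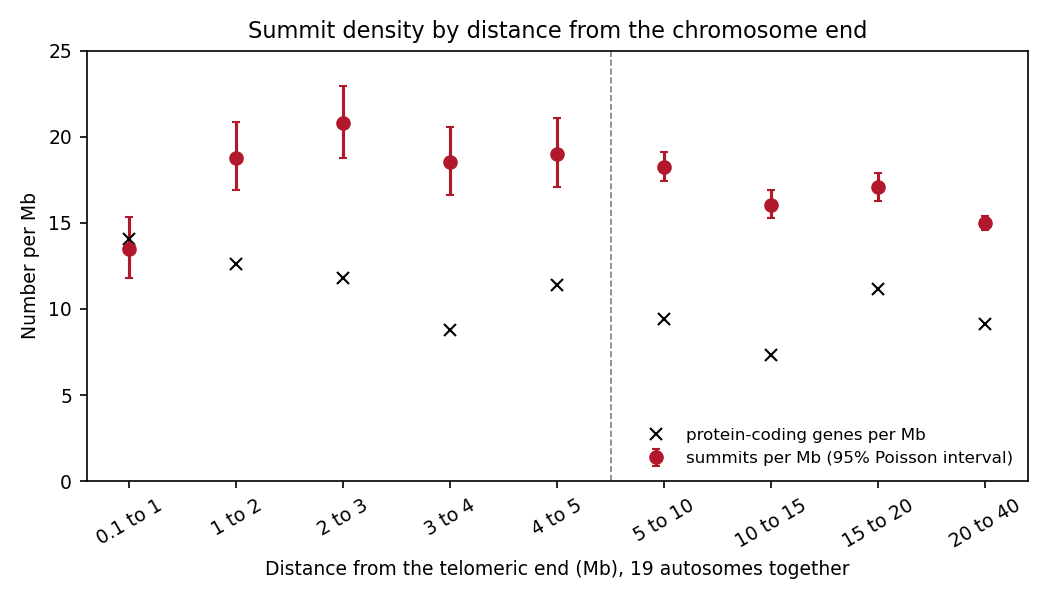
Summits per Mb (circles, bars are 95% Poisson intervals) and protein-coding genes per Mb (crosses) by distance from the telomeric end, 19 autosomes together. The dashed line marks 5 Mb, and density falls to 13.5 per Mb in the outermost bin and to 14.99 at 20 to 40 Mb.

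The excess did not stop at 5 Mb. The adjoining stretch, 5 to 10 Mb from the end, held 1735 summits, or 18.3 per Mb, and the distal ends had 0.978 times that (0.914 to 1.05, p 0.517, exact conditional binomial test), with 9 autosomes higher and 10 lower. Density was 16.1 per Mb at 10 to 15 Mb, 17.1 at 15 to 20 Mb and 14.99 at 20 to 40 Mb. On chromosome 8 the adjoining stretch held 208 summits against 106 in the last 5 Mb. With the window widened to 10 Mb, 15 of 19 autosomes were higher than their rest (p 0.0192, exact sign test, unadjusted), and with it narrowed to 2.5 Mb, 8 were (p 0.648, exact sign test).

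Gene content differed as well. The distal ends held 1087 protein-coding genes, 11.4 per Mb against 8.44 in the rest. Across the 19 distal windows, summits and protein-coding genes per Mb had a Pearson r of 0.646 and a Spearman rho of 0.705, given as a description because windows share libraries and base composition was not measured. Leaving out chromosomes 10 and 15, whose gene counts lay farthest from the median, r was 0.876 and rho 0.763. This step was not among the planned comparisons. Chromosome 10 had the most genes, 162, of which 58 were olfactory receptor genes, the odorant receptors of the nasal epithelium, and it held 83 summits. Chromosome 15 had 130 genes, of which 24 were keratin genes of epithelia, and it held 101 summits. Chromosome 7, with 149 summits, also had such genes, 10 olfactory receptor and 5 keratin-associated genes among 127. Whether the kind of gene bears on these summit counts was not tested. At the other extreme, the last 5 Mb of chromosome 17 had 4 protein-coding genes and 53 summits, and that of chromosome 18 had 8 genes and 64 summits.

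**Figure D3:**
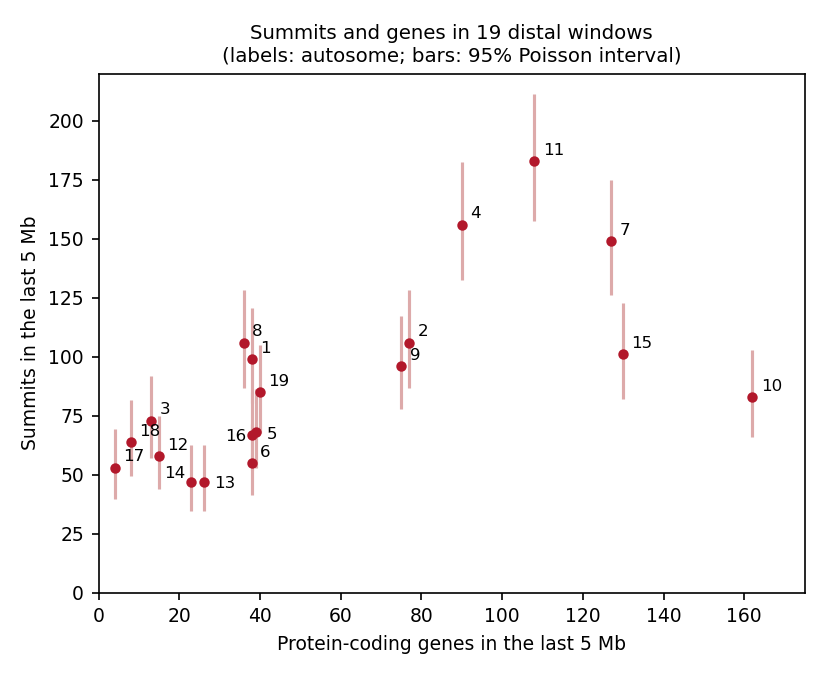
Summits (vertical axis, bars are 95% Poisson intervals) against protein-coding genes (horizontal axis) in the last 5 Mb of each autosome, labelled by number. Chromosomes 11, 4 and 7 lie at the top, and chromosomes 10 and 15 have many genes with 83 and 101 summits.

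Within 1 Mb bins of like gene count, the distal ends were still denser when pooled, by 1.16 times (Mantel-Haenszel ratio, 1.11 to 1.22, adjusted p 5.85e-09). The excess was largest among these groups in the 25 distal bins with 10 to 19 genes, at 24.6 against 17.5 per Mb (1.41 times, 1.29 to 1.53), and in the 5 bins without any gene, at 14 against 9.90 (1.41 times, 1.10 to 1.79). In bins of 1 to 4 genes the ratio was 0.949 (0.852 to 1.05) and in bins of 5 to 9 genes 1.04 (0.931 to 1.17). Bins of 20 genes or more had 1.16 times (1.03 to 1.29). By autosome, 11 distal ends held more summits than their gene counts gave and 8 fewer (p 0.648, adjusted 0.792, exact sign test). Chromosome 11 held 183 against 90.4 given by gene count, chromosome 4 156 against 85.6 and chromosome 7 149 against 93.3. The low end of chromosome 17, with 53, lay close to the 57.7 given by its few genes, while chromosomes 13 and 14, with 47 each, lay below 68.1 and 70.0. Without chromosomes 4, 7 and 11 the ratio was 1.02 (0.961 to 1.08, p 0.549, Mantel-Haenszel). These ends lay farthest above their gene counts, so leaving them out was bound to lower the ratio.

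**Figure D4:**
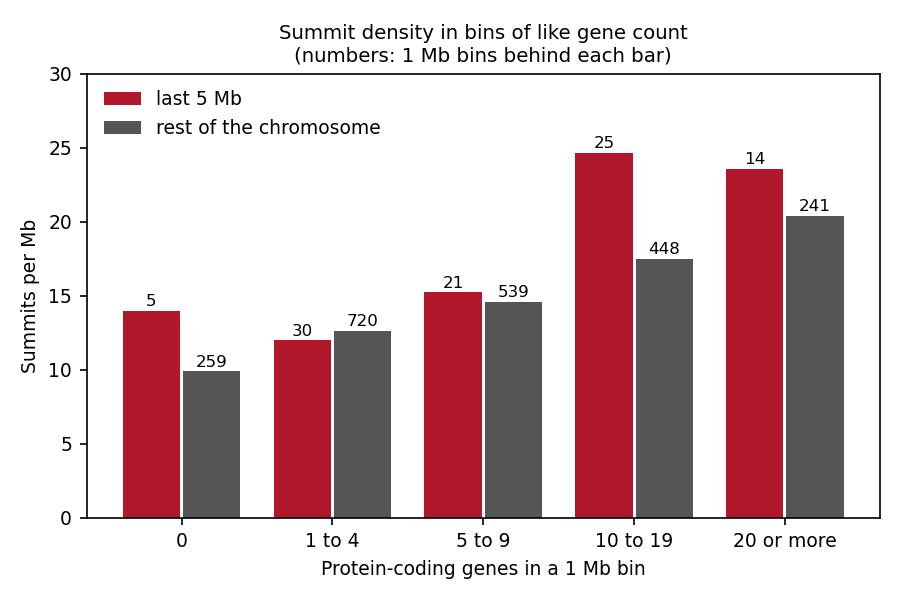
Summits per Mb in 1 Mb bins grouped by their number of protein-coding genes, for the last 5 Mb and for the rest of the autosomes, with the number of bins above each bar. The bars differ most at 10 to 19 genes (24.6 against 17.5) and at 0 genes (14 against 9.90).

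Single bins showed where the summits gathered. In the 95 distal bins of 1 Mb the count ran from 1 to 49 with a median of 15, against a median of 13 in the rest. Counts of 40 or more were found in 5 distal bins (5.26%) and in 21 of 2207 other bins (0.952%), a line drawn after the values were seen. The bin with 49 was chromosome 11 from 120082544 to 121082543, with 47 protein-coding genes. The next held 46 summits and 19 genes at 151508117 to 152508116 on chromosome 4, followed by the neighbouring bin of chromosome 11 from 119082544 with 44. The emptiest was 177113225 to 178113224 on chromosome 2, with 1 summit and 9 genes. The last Mb of chromosome 9 held 4 summits and 19 genes, among which is Ccr3, a chemokine receptor gene.

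Strength differed little. The median fold over control, a linear ratio given by the authors' caller, was 2.77 in the distal ends, in the first 5 Mb and in the rest, with quartiles of 2.49 and 2.94 in each. The median summit held 15 ChIP fragments, a pileup reconstructed from fold and p, in all 3 regions. Mean log2 fold was 1.46 in the distal ends and 1.45 in the rest, with 11 autosomes higher and 8 lower (p 0.648, adjusted 0.792, exact sign test). The lowest control level of the list, 4.78, was found at 73.9% of distal summits (71.7 to 75.9) and 72.6% of the rest (72.2 to 73.1). Distal folds ran from 1.76 to 4.496, while those in the rest of the autosomes reached 49.6.

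Entries with a q of 0.05 or less made up 23.5% of the autosomal list. In the distal ends they were 425 of 1696 (25.1%, Wilson interval 23.1 to 27.2) against 23.3% in the rest, with an odds ratio of 1.10 (0.982 to 1.23, adjusted p 0.0934, Fisher's exact test). That share was higher on 9 autosomes and lower on 10. It ran from 10.9% on chromosome 18 (7 entries) to 35.8% on chromosome 8 (38 entries), next to shares of 24.3% and 22.3% in the rest of those chromosomes. Chromosome 11, with the highest density, had 24.6%, close to the whole list. Entries of 400 bp or more were 4.78% of distal entries (3.86 to 5.90) and 3.12% of the rest (2.94 to 3.32), a width chosen with earlier results known and not tested.

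**Figure D5:**
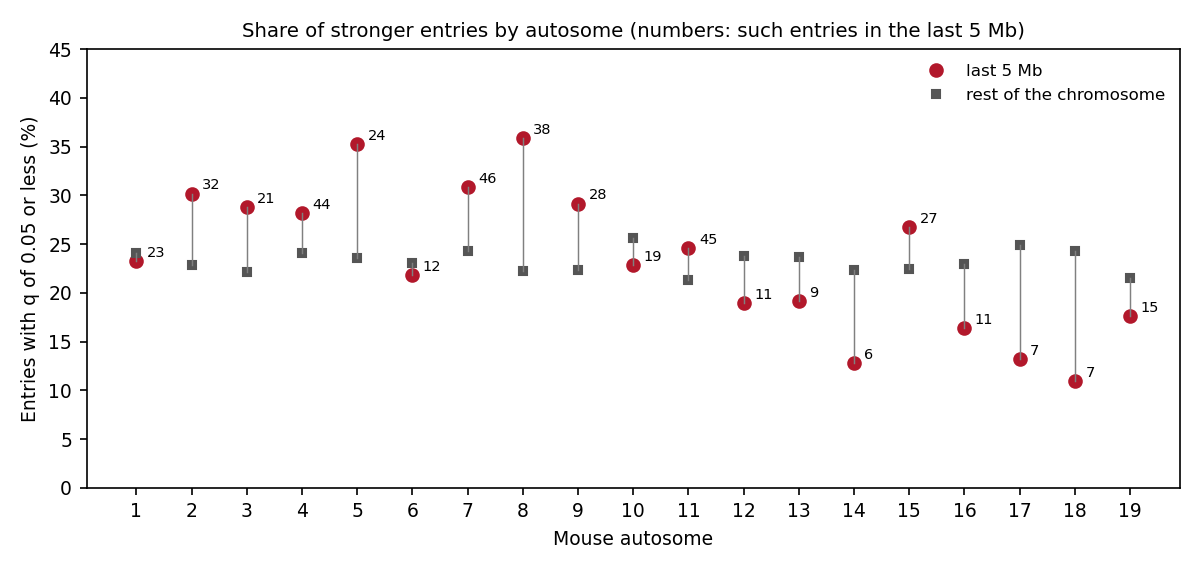
Share of entries with a q of 0.05 or less (vertical axis, percent) in the last 5 Mb (circles, with the number of such entries) and in the rest (squares) of each autosome. Circles run from 10.9% to 35.8% and squares from 21.3% to 25.6%, with 9 circles above their square.

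The 10 distal summits of highest fold lay on chromosomes 2, 4, 5, 8, 11, 12 and 18, and 14 more tied at the next fold, 3.805. The first was the entry chr2:178428561-178428815, with a fold of 4.496, 25 fragments and a q of 6.06e-06. It fell in the long noncoding RNA gene Gm35532, 1866 bp upstream of Cdh26, a cadherin gene. A fold of 4.32 was found at chr5:149411889-149412140, inside Medag, 44353 bp downstream of its start. The same fold was found at chr8:126054144-126054378, outside coding genes, 23584 bp beyond the end of Kcnk1, which encodes a leak potassium channel. Inside Prkcz, the gene of an atypical protein kinase C, a fold of 4.15 stood at chr4:155359639-155359962, 1649 bp downstream of the start.

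The remaining 6 shared a fold of 3.98, with 22 fragments and a q of 0.000497. They lay inside Bahcc1 and Tbcd, a tubulin folding cofactor gene, both on chromosome 11, inside Cdca7l on chromosome 12 and inside Dok6, a docking protein gene of receptor tyrosine kinases, on chromosome 18. Another lay inside Trim67, a ubiquitin ligase family gene, 2305 bp downstream of its start on chromosome 8. The last lay 225707 bp from any coding gene on chromosome 2. The Cdca7l summit was 774 bp beyond the end of its neighbour Dnah11, an axonemal dynein gene. Thus 7 of the 10 were inside a coding gene, and 1 was within 1 kb of a gene's end. By autosome the highest distal fold ran from 3.29 on chromosome 14 to 4.496 on chromosome 2.

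The widest distal entries had ordinary folds. The widest, 619 bp, lay in Kcnq1 on chromosome 7 from 143108306 with a fold of 2.42 and a q of 0.272. The others were 616 bp at 155788368 on chromosome 3, 594602 bp from the nearest coding gene (fold 2.92), and 583 bp at 191137312 on chromosome 1 (fold 2.49). The outermost summits included one in Wls, a Wnt secretion gene, 103 kb from the end of chromosome 3 (fold 2.94), one in Tmem196, 114 kb from the end of chromosome 12 (fold 3.11), and one 116 kb from the end of chromosome 7, 1612 bp from Mrgprd, a sensory neuron receptor gene (fold 3.29).

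At 5 distal entries the control exceeded 2 times its lowest and most frequent level of 4.78, and 4 of these lay in Igh, the immunoglobulin heavy chain locus, at the end of chromosome 12. Their control levels ran from 9.70 to 14.9 and their folds from 1.76 to 2.99. Igh held 12 distal summits, with a median control level of 8.11 against 4.78 over all distal summits. The fifth entry lay in Os9 on chromosome 10, with a control level of 10.3 and a fold of 2.12.

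More of the distal summits lay at or in genes. Protein-coding genes were also denser there, at 11.4 per Mb against 8.44 in the rest, and a difference beyond that was not tested. Summits at a gene end, meaning 1 kb or less from either end of a protein-coding gene, numbered 108 (6.37%, Wilson interval 5.30 to 7.63) against 4.78% of the rest, an odds ratio of 1.35 (1.10 to 1.66, adjusted p 0.00555, Fisher's exact test). The first 5 Mb windows had nearly the same share, 6.41%. Elsewhere in protein-coding genes were 852 (50.2%) against 46.2% (odds ratio 1.18, 1.07 to 1.30, adjusted p 0.00194, Fisher's exact test). That call was lost without chromosome 4 (odds ratio 1.10, p 0.0667) and without chromosome 11 (1.09, p 0.0960). Outside listed genes were 626 (36.9%) against 41.4% (0.827, 0.746 to 0.915, adjusted p 0.000437, Fisher's exact test). By autosome these shares were higher on 12, 12 and 6 of 19, with exact sign test p-values of 0.359, 0.359 and 0.167 before adjustment. Distal ends of chromosomes 3, 17 and 18, with 13, 4 and 8 protein-coding genes, had no summit at a gene end. Those of chromosomes 10 and 15, with 162 and 130 genes, had 11 and 13, or 13.3% and 12.9% of their summits.

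Starts and ends of genes took similar numbers. Where the promoter table gives a gene's strand, 45 distal summits (2.65%, 1.99 to 3.53) lay within 1 kb of a start, against 1.97% in the rest, and 47 lay at an end only. The odds ratio for starts was 1.36 (0.975 to 1.84, p 0.0611, Fisher's exact test), a comparison added after the data were seen.

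Counted per gene, 113 of the 1087 distal genes had a summit at an end (10.4%), against 8.68% of all autosomal protein-coding genes. Distal summit density was itself 1.22 times that of the rest of the autosomes, and a difference per gene beyond that was not tested. The odds ratio against the rest was 1.24 (1.01 to 1.52, adjusted p 0.0441, Fisher's exact test), with 11 autosomes higher and 8 lower. This call was lost when any of chromosomes 1, 2, 6, 9, 11, 12 and 19 was left out (p from 0.0542 to 0.0936). A summit anywhere in the gene or within 1 kb of it was found at 440 distal genes (40.5%), beside 40.2% of all autosomal genes.

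The 10 genes with the highest fold at an end were of mixed kinds. Dnah11 led with 3.98, 774 bp beyond its transcription end. Pnpla2, a triglyceride lipase gene on chromosome 7, followed with 3.73, 887 bp inside its end. Sp4, a zinc finger transcription factor gene of neurons, had 3.63 at 118301820 on chromosome 12, 380 bp before its start, and Tmprss12 had the same fold. Ifitm1, an interferon-induced membrane protein gene, had 3.57. A fold of 3.46 was shared by Cr2, a complement receptor gene of B cells, Phlda2, Rpsa, a ribosomal protein gene, Tha1 and Troap. Of these 10 summits, 5 stood at a start and 5 at an end.

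Genes with the most summits were long. Rbfox3, which encodes the neuronal splicing factor NeuN, held 15 in 421.8 kb on chromosome 11, or 3.54 per 100 kb, with a highest fold of 3.29. Kcnq1, a voltage-gated potassium channel gene, held 13 in 320.2 kb (4.04 per 100 kb). Negr1, a neuronal adhesion gene, also held 13, in 754.7 kb (1.72 per 100 kb). Counts of 12 were found at Ano1, a calcium-activated chloride channel gene (7.25 per 100 kb), at Dscam, a neuronal recognition gene, at Pard3, a cell polarity gene, and at Prdm16, a transcription regulator gene. Lrrc7 and Shank2, both postsynaptic scaffold genes, and Rptor, which encodes an mTOR complex subunit, held 11 each. Among the genes named here, only Rptor had a summit at an end, with a fold of 2.64. Ano1, Kcnq1 and Shank2 all lie in the last 5 Mb of chromosome 7.

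Most ion channel and synaptic genes of the distal ends held a summit. Of 13 voltage-gated and related channel genes, 11 held a summit (84.6%, beside 71.1% of 114 such genes on the autosomes and 40.2% of all genes) and none had one at an end, beside 12.3% of the 114. Kcnh1 held 7, and Kcnab2, Kcnj6 and Scn8a 4 each, next to 13 in Kcnq1. Their median length was 86.8 kb against 14.3 kb for all distal genes, and the part of length in these counts was not tested. Of 9 synaptic adhesion and scaffold genes, 8 held a summit (88.9%, beside 78.9% of 71 on the autosomes), 73 summits in all. None had one at an end, beside 2.82% of the 71. The median length of these 9 genes was 457 kb, and the part of length was not tested here either. Negr1 held 13, Dscam 12 and Cdh4 10, and Cbln2, a short gene on chromosome 18, held none. Of 3 transmitter receptor genes, 1 held a summit, beside 57.9% of 95 on the autosomes. Chrna4, a nicotinic receptor subunit gene on chromosome 2, held 2 summits, one of them 260 bp from its start with a fold of 2.94. Drd4 and Gabrd, receptor genes for dopamine and GABA, held none.

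Gene families differed. Of 68 distal olfactory receptor genes, 2 had an end summit (2.94%, beside 3.64% of 1100 on the autosomes), Olfr776 with a fold of 2.94 and Olfr53 with 2.43. Of 29 keratin and keratin-associated genes, 7 held a summit (24.1%, beside 10.5% of 105 on the autosomes). An end summit was found at 3 of them (10.3%, beside 3.81% of the 105 and 10.4% of all distal genes), Krt78 (fold 3.29), Krt71 (2.94) and Krt7 (2.28). Both keratin shares were thus no higher than those of all distal genes. Of 14 zinc finger genes with a Zfp symbol, 2 held a summit (14.3%, beside 33.1% of 360 such genes on the autosomes), Zfp651 with 2 and Zfp386 with 1 at its end (fold 2.42). Zinc finger genes with other symbols, such as Sp4, were not counted in this group. The immediate early genes Atf3 and Nr4a1, both in distal ends, held none, beside 33.3% of 24 on the autosomes with a summit. Among 9 cell cycle and growth factor genes, 3 held a summit (33.3%, beside 47.5% of 80 on the autosomes). Fgf14 held 3, Fgf10 1 and Cdk4 1, which was 930 bp from its start (fold 2.42), while Ccnd1, a D-type cyclin gene, held none.

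The genes listed as imprinted at the end of chromosome 7 were counted as a group. Imprinted genes are expressed from 1 parental copy in at least some tissues, which was not measured here. Of 13 members, 6 held a summit (46.2%, beside 40.2% of all genes), and they held 19 in all. Of those, 13 lay in Kcnq1. Slc22a18 held 2, and Ascl2, Cd81, Igf2 and Phlda2 1 each. Phlda2, which limits placental growth, was the 1 member with an end summit, in the promoter window shown above. Cdkn1c, Ins2, Nap1l4, Osbpl5, Th, Tspan32 and Tssc4 held none. Of the cell type markers listed, those in distal ends were Rbfox3 of neurons, with 15 summits, and Cx3cr1 of microglia, with 2, neither at an end.

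Denser summits have closer neighbours, the distal density was 1.22 times that of the rest, and a difference in spacing beyond that was not tested. Another summit within 5 kb was found for 342 (20.2%) against 17.2% in the rest (odds ratio 1.21, 1.07 to 1.37, adjusted p 0.00318, Fisher's exact test). By autosome, 10 were higher and 9 lower. The odds ratio was 1.12 without chromosome 4 (p 0.0839) and 1.09 without chromosome 11 (p 0.222), so the call was lost without either of these dense ends.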

How the data were processed

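The data were a single peak list in narrowPeak layout, marked as pooled in the name the authors gave it, and it has no header. Per the submitters' processing notes, the tools included MACS2, BWA, SAMtools, Trimmomatic and FastQC (no version listed) and the builds mm10 and GRCm38.p6. For caller settings, filters and duplicates, nothing is given in the sources used here. By column order, the authors deposited a fold enrichment (a linear ratio), a −log10 p, a −log10 q and a display score, the last not used. The smallest deposited −log10 p was 2.00. Intervals and summit positions, in bp, were made 1-based. The members and gene lists were chosen with earlier results of these data known. Gene groups were picked by gene symbol and do not hold every gene of a kind.

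Summits on the 19 autosomes (35315) were assigned by chromosome length (UCSC mm10), and 224 entries elsewhere were not compared. Chromosome lengths of the rest sum to 2216 Mb, unknown bases included. Genes (20665 protein-coding of 47042) came from RefSeq GRCm38.p6 and were placed by midpoint, and 16457 had a strand from the promoter table. The whole-number pileup satisfying fold and p within 0.002 was unique for 35529 entries. Densities were compared by the exact conditional binomial test, shares by Fisher's exact test, bins of 1 Mb by Mantel-Haenszel ratio, and each autosome with itself by the exact sign test, in Python 3.11.15 with scipy 1.17.1. P-values were Benjamini-Hochberg adjusted over 10 pooled and 11 sign tests. The functions were tested on simulated data.

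Named entries and genes followed a rule: the 10 distal summits and 10 genes of highest fold at an end, the 3 widest entries, the outermost summits, the 10 genes with most summits (11 with ties) and members of 9 gene groups and of the marker list with an end summit or the most summits. Other group members, those without a summit among them, were named after their values were seen. Genes that the rule selects but that are withheld are not reported here. Alternatives changed the window, entry filters, bins and gene-end distance, or left out each autosome.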

Additional observations from a re-analysis of the deposited data

Results flagged for a closer look

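Chromosome X was outside the comparisons, and its last 5 Mb held 8 summits, with folds from 2.42 to 2.94. That is 1.60 per Mb (95% Poisson interval 0.691 to 3.15), 1.41 times the 1.13 per Mb of the rest of X. The ratio's interval, 0.601 to 2.84, includes 1 (p 0.290, exact conditional binomial test).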

How the results depend on the processing

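Of 64 alternatives, 48 kept the direction and the side of an unadjusted p of 0.05, as did 327 of the 361 that left out an autosome. No paired analysis was possible because the libraries are pooled in 1 list. Against the rest, 8 autosomes were higher with a window of 2.5 Mb and 15 with 10 Mb. With both end windows at 10 Mb, 15 were higher than the first 10 Mb after position 3000000. At a −log10 q of at least 5, with 1 distal and 35 other entries, the density ratio was 0.666 and 1 autosome was higher. This filter was not run against the first 5 Mb. Chosen after seeing the data, the comparison with 5 to 10 Mb gave 0.978 and 9 autosomes. Leaving out chromosomes 4, 7 and 11, also chosen so and bound to lower the ratio, gave 1.05. In groups of like gene count it gave 1.02 with 8 autosomes. With a −log10 q of at least 2, the share of such entries was higher on 14 autosomes. With gene ends at 0.5 kb the odds ratio was 1.32 (p 0.0520, Fisher's exact test) for summits and 1.20 for genes, with 8 autosomes higher, and at 5 kb 9 were higher. By median fold the direction reversed: 1 autosome was higher, most were tied and the others were lower (p 0.0703, exact sign test). Causes were not tested.

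Leaving out each autosome gave these ranges: 1.16 to 1.254 (11 to 12 autosomes higher) for density against the rest, 1.30 to 1.46 (11 to 12) against the first 5 Mb, and 1.11 to 1.18 (10 to 11) in gene count groups. Odds ratios were 1.06 to 1.14 (8 to 9) for a q of 0.05 or less, past p 0.05 without chromosome 17, 18 or 19. They were 1.26 to 1.42 for gene ends, 1.09 to 1.22 inside genes (11 to 12), 0.778 to 0.892 outside (5 to 6), 1.20 to 1.30 for genes with an end summit (10 to 11), and 1.09 to 1.26 (9 to 10) for a neighbour within 5 kb. Pooled intervals rest on summit counts, and library depth is unknown.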
